A study of Mus musculus with 6 samples.

Results

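The mitochondrial carriers of the SLC25 family were examined as the protein-coding genes of the raw count table whose symbol is Slc25a followed by a number. There were 41 such genes among the 21606 of the table. RNA had been measured in marrow cells in which aldehyde dehydrogenases were highly active (ALDHbr cells), a marrow fraction rich in progenitors, from wild-type C57BL/6 mice, an inbred laboratory strain. The female group held 3 libraries and the male group held 3, all of wild-type genotype. No age, treatment or sorting gate is given in the sources used here. Nothing in the labels ties a replicate to an animal of its own. P-values therefore refer to the spread among these libraries and this spread may be technical.

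SLC25 proteins sit mostly in the inner mitochondrial membrane and exchange nucleotides, phosphate, carboxylates, amino acids and cofactors between the cytosol and the matrix. Each is built from repeats of a pair of membrane-spanning helices, and most move one metabolite in while another moves out. They are encoded in the nucleus and imported into mitochondria after translation. The adenine nucleotide translocases among them bring ADP in and let ATP out, and the mitoferrins deliver iron for haem and iron-sulphur clusters, which developing red cells need in large amounts.

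Libraries were made by BRB-seq, a bulk method that reads transcripts from their 3' ends, so a gene's count is not expected to grow with its length. Totals ran from 1199551 to 1475224 counts in the female libraries and from 679724 to 880074 in the male ones. Markers of immature myeloid cells such as Mpo, a granule peroxidase, were abundant in every library, with sums of 15110 to 15782 counts per 1000000 counts (CPM, scaled by TMM) in females and 13535 to 14605 in males, and 0 of the 7 passed the test below. All male sums lay below the female ones, and Mpo and Elane were lower in all 3 male libraries. Some markers of other cell types did pass. The table held 12 erythroid markers, of which 4 were tested and 2 rose in males (Car1 and Car2, carbonic anhydrases), with list sums of 110 to 134 CPM in females and 258 to 421 CPM in males. The sums of 6 megakaryocyte markers were 26.4 to 35.4 CPM in females and 47.8 to 116 CPM in males, with 1 marker tested and risen (Pf4), and those of 6 mast cell and basophil markers were 77.3 to 97.0 and 129 to 182 CPM, with 1 of 3 tested risen (Cpa3). The sums of 8 B cell markers were 94.2 to 98.9 CPM in females and 64.9 to 75.9 CPM in males, with 1 of 2 tested fallen (Ms4a1). Of the tested markers of plasma cells, late neutrophils, stromal cells and T or NK cells 0 passed, with stromal sums of 178 to 226 CPM in females and 217 to 329 CPM in males. The marker lists held no immunoglobulin constant region genes. Of these, Ighg1, Ighg2b, Igha and Iglc1 were among the genes that passed as lower in males. The part of these marker differences in the carrier values below was not tested, and in bulk samples fewer cells of a type and less RNA per cell cannot be told apart. The library labelled male replicate 1 lay closer to female replicate 1 (chi-square per degree of freedom 1.89 over tested genes) than to male replicates 2 and 3 (4.31 and 2.60), so values without it are given for the carriers that then had an unadjusted p under 0.05.

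Among the 41 carriers, the most abundant and the third are Slc25a5 and Slc25a4, both adenine nucleotide translocases. The end of their coding sequence shows bases at which they differ. It lies upstream of the 3' end of each gene, and where the reads fell was not examined. The lines give the last 120 bases before the stop codon, 5' to 3' on the coding strand, from GENCODE M21 (GRCm38), with capitals at the 28 positions where the genes differ.
Slc25a5, chrX:36798422-36798541, plus strand: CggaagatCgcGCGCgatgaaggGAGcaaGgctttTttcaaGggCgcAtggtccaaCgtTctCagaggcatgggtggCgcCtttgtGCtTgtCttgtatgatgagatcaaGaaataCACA
Slc25a4, chr8:46207466-46207585, minus strand: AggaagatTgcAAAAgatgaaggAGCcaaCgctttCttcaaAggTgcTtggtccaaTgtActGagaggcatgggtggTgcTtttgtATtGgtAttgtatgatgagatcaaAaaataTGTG
Both stretches lie within a single exon. Over the 894 coding bases of each gene the identity was 77.4%, and the longest run shared by the transcripts was 20 bases, against an insert read of 81 bases. Of the 41 carriers, 40 had no window of 81 bases in the last 300 bases of their main transcript that any other annotated gene's transcript also held. The exception was Slc25a26, whose windows were shared with Lrig1 on the opposite strand in 29.1% of cases.

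Carriers that serve ATP synthesis and export led the 41 genes named Slc25a. Family members under other names are outside this order, and of them Ucp2, at a mean of 751 CPM, lay between Slc25a3 and Slc25a4. Together the 41 carriers held 20652 counts, 0.325% of all counts, and Slc25a5, Slc25a3 and Slc25a4 alone made up 65.3% of them, with 63.5% to 67.1% in single libraries. The 10 carriers with the highest levels made up 83.6%. Counts were found in every library for 35 carriers, and 6 had a 0 in at least 1 library. Enough counts for the test were held by 28 carriers, whose mean levels spanned 76.4-fold and had a median of 33.0 CPM, against 43.2 CPM for all 8460 genes tested. The order of the tested carriers was much alike in all libraries, with Spearman coefficients between pairs of libraries of 0.856 to 0.972 over the 28 genes, which are not independent replicates.

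**Figure D1:**
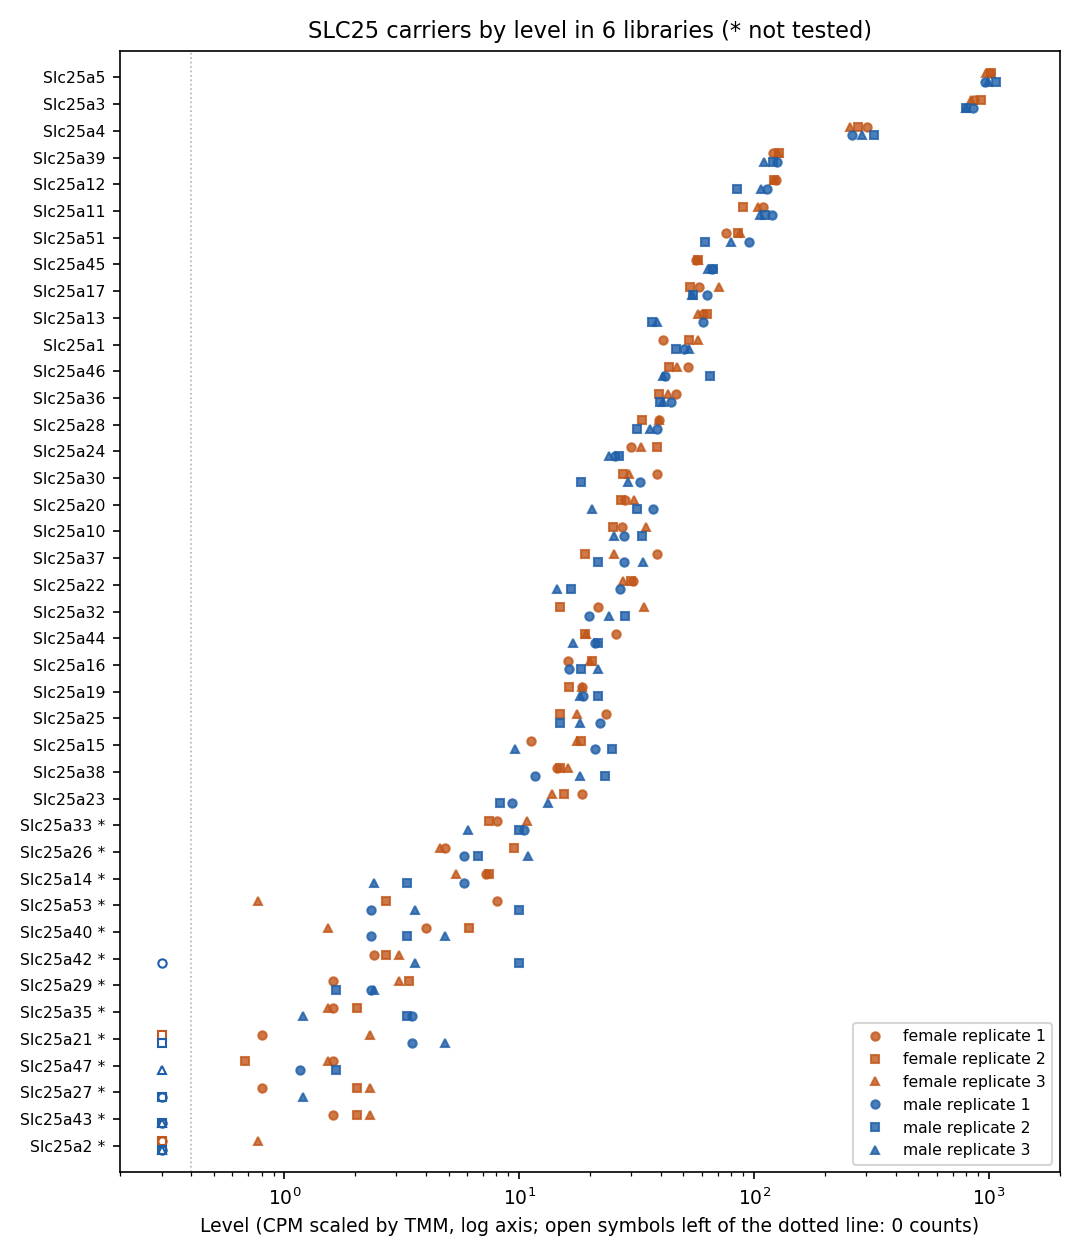
Level of the 41 carriers in CPM (log axis) in order of mean level, with one symbol per library, colour for sex, and open symbols left of the dotted line for libraries at 0 counts. Slc25a5 and Slc25a3 stand near 1000 and 845 CPM in all libraries, and the points of the sexes mix along the order.

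The first 3 places were the same per length, while the order lower down moved. Exon length here is the union of all annotated exons of a gene, and counts from 3' ends are not expected to follow it. Divided by exon length, 9 of the 10 carriers with the highest CPM stayed among the first 10. Slc25a5 was then at 610 CPM per kilobase, Slc25a3 at 152 and Slc25a4 at 121. Slc25a13 moved from the tenth to the 11th place and Slc25a1 from the 11th to the 6th. Further moves were those of Slc25a12 from place 5 to 9, Slc25a36 from 13 to 23, Slc25a38 from 27 to 18 and Slc25a33 from 29 to 20. Across the 28 tested carriers the Spearman coefficient of mean CPM with exon length was -0.35, and across 8149 tested protein-coding genes it was -0.12, both over genes that share their libraries.

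Slc25a5 (chrX:36795651-36798807), the adenine nucleotide translocase of proliferating cells, ranked first in all 6 libraries. Its level was 1005, 1017 and 971 CPM in the female libraries and 966, 1071 and 990 CPM in the male ones. It stood 130th among all genes of the table by mean level, at the 98.5th percentile of tested genes. The male and female ranges lay across one another, and the log2 fold change, male minus female, was 0.02 ± 0.12 (SE), with a 95% interval of -0.23 to 0.26.

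Slc25a3 (chr10:91116574-91124059), the phosphate carrier that supplies ATP synthase with phosphate, came second in every library. It was at 862, 921 and 840 CPM in females and 851, 800 and 798 CPM in males. Slc25a5 exceeded it in 6 of 6 libraries and their ranges did not overlap, with a ratio of mean CPM of 1.19. Its log2 fold change was -0.10 ± 0.12, with 1 male library inside the female range.

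Slc25a4 (chr8:46206797-46211284), the translocase isoform typical of heart and muscle, was the third in every library. Its levels were 303, 277 and 256 CPM in females and 262, 324 and 288 CPM in males, and the ranges overlapped. The log2 fold change was 0.06 ± 0.13. On the CPM scale Slc25a3 was 2.96 times as high as Slc25a4, and Slc25a4 was 2.35 times as high as the next carrier, and neither neighbour's range touched that of Slc25a4. Of the counts of both translocases together Slc25a5 took 78.0% (exact 95% interval 77.1% to 78.9%, counting error only), or 83.4% when each was divided by its exon length. The female libraries averaged 78.2% ± 1.19 (SD, n = 3) and the male ones 77.6% ± 0.957, a difference within the spread of the libraries (exact permutation test, two-sided, p = 0.6, where 0.1 is the smallest that 3 against 3 allows).

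Below these, the order was less firm: from the fourth place on, the ranges of neighbouring carriers over the 6 libraries overlapped in each case. Slc25a39 (chr11:102402985-102407946), which is required for glutathione import into mitochondria, was at 121, 127 and 126 CPM in females and 125, 120 and 110 CPM in males. It exceeded Slc25a12 in 5 of 6 libraries. Its close relative Slc25a40 had only 2 to 9 counts per library, so Slc25a39 held 97.0% of the counts of the pair (exact 95% interval 95.5% to 98.1%). The log2 fold change of Slc25a39 was -0.08 ± 0.13, and the male and female ranges overlapped.

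Among carriers of carboxylates, Slc25a11 (chr11:70644196-70647479), the oxoglutarate carrier of the malate-aspartate shuttle, was highest. It stood at 109, 90.1 and 104 CPM in females and 119, 111 and 106 CPM in males. The male libraries were mostly higher but 1 female library lay inside their range, and the log2 fold change was 0.16 ± 0.14. Slc25a1, the citrate carrier, was at 50.5 ± 8.56 CPM (SD, n = 3) in females and 49.9 ± 3.23 CPM in males, and Slc25a10, the dicarboxylate carrier, at 29.0 ± 4.99 and 28.8 ± 4.05 CPM (both genes are named for their role, outside the naming rule). The fourth of this group, Slc25a21, an oxodicarboxylate carrier, had 0 to 4 counts per library and was not tested.

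Among carriers of nucleotides other than ADP and ATP and of cofactors, Slc25a51 (chr4:45395923-45408766), which is required for NAD uptake, was highest. It was at 75.7, 85.3 and 87.0 CPM in females and 95.5, 61.5 and 79.5 CPM in males, so that the males held both the highest and the lowest value. Slc25a17 (chr15:81318911-81360812), a peroxisomal member of the family that carries coenzyme A and other nucleotide cofactors, was at 58.0, 53.5 and 70.8 CPM in females and 62.9, 54.9 and 54.2 CPM in males. The log2 fold changes of these genes were -0.04 ± 0.16 and -0.07 ± 0.17, and their ranges overlapped. This group had 9 carriers with counts, of which 6 were tested, with a median log2 fold change of -0.02. Slc25a36 and Slc25a33, both pyrimidine nucleotide carriers, gave different orders by scale: Slc25a36 held 83.0% of their counts but 48.7% after division by exon length.

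The mitoferrins were low beside the translocases, at 9.70 CPM per kilobase for Slc25a28 and 4.60 for Slc25a37. Slc25a28 (mitoferrin-2, found in many tissues) was at 37.3 ± 3.56 CPM (SD, n = 3) in females and 35.4 ± 3.48 CPM in males. Slc25a37 (mitoferrin-1, typical of erythroid cells) was at 38.7, 19.0 and 25.4 CPM in females and 27.95, 21.6 and 33.7 CPM in males. Both genes, and Slc25a38 below, are named for their roles in red cells, outside the naming rule. The highest and the lowest Slc25a37 values were both female, and the log2 fold change was 0.05 ± 0.27. The erythroid marker sums lay higher in all 3 males, with a mean of 340 CPM. Of this mean, Car1 and Car2 held 142 and 109 CPM. All 4 tested erythroid markers had a log2 fold change above 0, while the untested, rare Epor and Hba-a1 had lower means in males. Slc25a38, which carries glycine for haem synthesis, was at 14.5, 14.9 and 16.2 CPM in females and 11.6, 23.3 and 18.1 CPM in males, with a log2 fold change of 0.17 ± 0.30. The intervals of these low genes were wide, from -0.51 to 0.62 for Slc25a37 and from -0.46 to 0.80 for Slc25a38.

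The comparison of the sexes asked which carriers differ in level between male and female ALDHbr cells. In the quasi-likelihood test of edgeR, adjusted by Benjamini-Hochberg over all tested genes, 0 of 28 carriers passed an adjusted p of 0.05, and the lowest adjusted p of a carrier was 0.388. Across all tested genes 49 of 8460 passed (0.579%), 36 higher in males and 13 higher in females (29 and 23 when scaled by library size), so a count of 0 among 28 is near this background. At an unadjusted p under 0.05 there was 1 carrier, Slc25a22, against 11.3% of all tested genes. Without male replicate 1 there were 3 of 31 tested carriers, Slc25a12, Slc25a13 and Slc25a22, against 1480 of all 8989 genes tested in that fit. DESeq2 and limma-voom also called 0 carriers. Log2 fold changes of the carriers ran from -0.60 to 0.19 with a median of -0.02, against -0.003 for all tested genes. Of the carriers 12 lay above 0 and 16 below (57.1%), against 50.7% below for all genes. The 95% interval lay within 1.5-fold either way for 16 carriers and within 2-fold for 26, while 2 had intervals that reached further. The count over all genes was 415 without male replicate 1, 23 without male replicate 3 and 32 without female replicate 2, and the carriers stayed at 0 in each case. The widths of the intervals, from 0.49 to 1.37 on the log2 scale, set what could be detected at this depth.

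**Figure D2:**
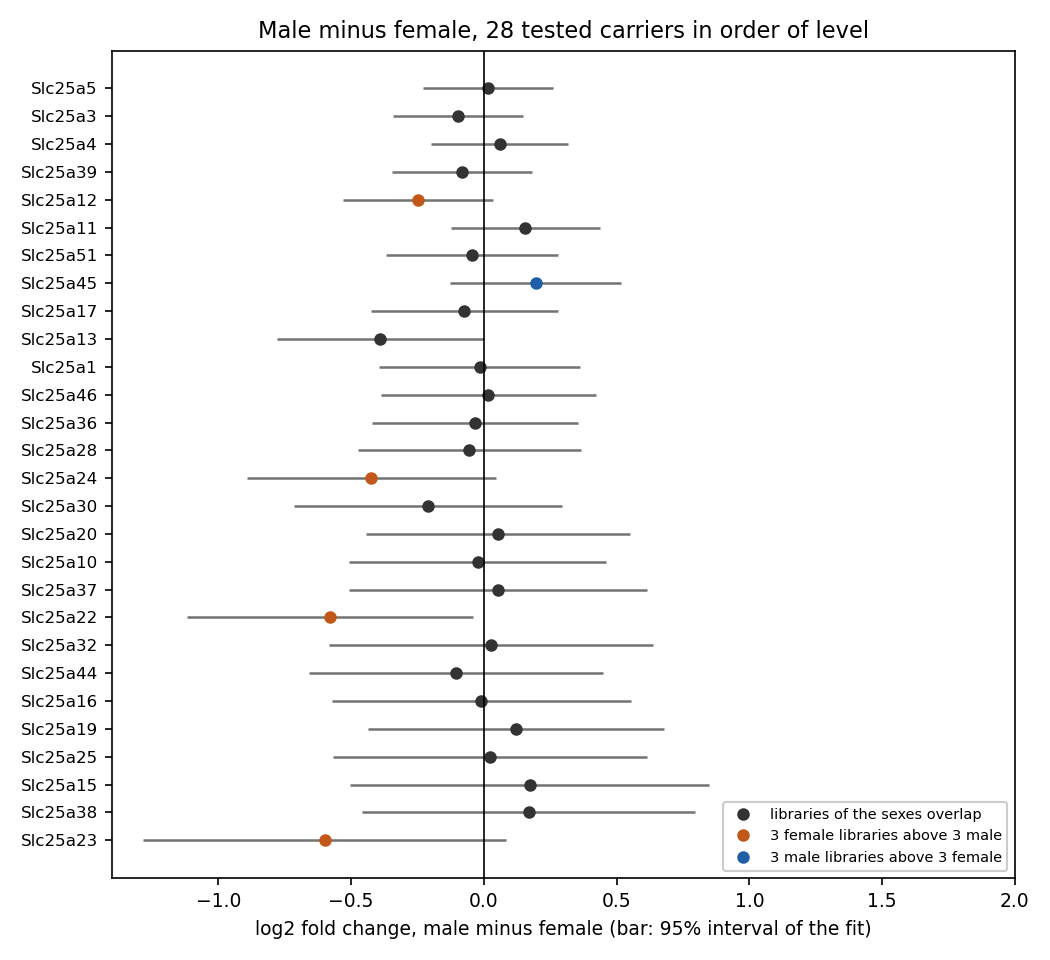
Log2 fold change, male minus female, of the 28 tested carriers in order of level, with the 95% interval of the fit as a bar and colour where the libraries of one sex all lie above those of the other. All points lie between -0.60 and 0.19, and the bars widen from the abundant carriers at the top to the rare ones at the bottom.

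All 3 female libraries exceeded all 3 male ones for 4 tested carriers, Slc25a12, Slc25a22, Slc25a23 and Slc25a24, while this held for 8.03% of all tested genes. The reverse order was seen for 1 carrier, Slc25a45, against 7.57% of all tested genes. These carriers are described next because their libraries separate, although none passed the adjusted threshold.

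Slc25a12 (chr2:71271063-71367749, aralar) and Slc25a13 (chr6:6041218-6217173, citrin) are the aspartate-glutamate exchangers of the malate-aspartate shuttle, and both bind calcium. Slc25a12 was at 124, 121 and 122 CPM in the female libraries, which lay within 3 CPM of one another, and at 113, 84.8 and 107 CPM in the male ones. Its log2 fold change was -0.25 ± 0.14, with an unadjusted p of 0.081 and an adjusted p of 0.515 by edgeR. Without male replicate 1 it was -0.33 with an adjusted p of 0.267. Without male replicate 2 or 3 it was -0.15 or -0.28, with adjusted p-values of 0.864 and 0.671 by edgeR. Slc25a13 was at 60.4, 63.0 and 57.7 CPM in females and at 60.6, 36.6 and 38.6 CPM in males. Here male replicate 1 fell within the female range while male replicates 2 and 3 lay well under it. The log2 fold change was -0.39 ± 0.19 (edgeR, unadjusted p = 0.0501, adjusted p = 0.441). Without male replicate 1 it was -0.68 with an adjusted p of 0.0561 by edgeR, the lowest that any carrier reached under any setting tried. Leaving out male replicate 2 or 3 instead gave -0.28 or -0.27, with adjusted p-values of 0.784 and 0.775 by edgeR. Of the counts of this pair Slc25a12 held 67.6% (exact 95% interval 64.7% to 70.4%), with 67.0% ± 1.03 in females and 69.5% ± 4.24 in males. Divided by exon length the share was 52.3%.

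Slc25a22 (chr7:141429744-141437892), a glutamate carrier, was at 30.6, 29.8 and 27.7 CPM in females and at 26.8, 16.6 and 14.5 CPM in males. All males lay lower, male replicate 1 by the least. The log2 fold change was -0.58 ± 0.26, with a 95% interval of -1.12 to -0.04, an unadjusted p of 0.036 and an adjusted p of 0.388 by edgeR. Without male replicate 1 the log2 fold change was -0.93 with an adjusted p of 0.0901 by edgeR. Without male replicate 2 or 3 it was -0.50 or -0.38, with adjusted p-values of 0.709 and 0.755 by edgeR.

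Slc25a24 (chr3:109123149-109168457) and Slc25a23 (chr17:57043711-57059863) exchange ATP-Mg for phosphate in answer to calcium and so adjust the adenine nucleotide pool of the matrix. Slc25a24 was at 29.8, 38.6 and 33.1 CPM in females and at 25.6, 26.6 and 24.1 CPM in males. Slc25a23, the tested carrier with the lowest level, was at 18.5, 15.6 and 13.9 CPM in females and at 9.32, 8.32 and 13.3 CPM in males. The closest pair of libraries for Slc25a23, a female and a male, lay less than 1 CPM apart. Log2 fold changes were -0.42 ± 0.23 for Slc25a24 and -0.60 ± 0.33 for Slc25a23, with adjusted p-values of 0.499 and 0.515 by edgeR. The third tested member of this group, Slc25a25, lay at 18.6 ± 4.31 CPM (SD, n = 3) in females and 18.4 ± 3.59 CPM in males. The sum of the 3 ran from 64.6 to 71.7 CPM in females and from 49.9 to 57.1 CPM in males.

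Slc25a45 (chr19:5877808-5885878), placed with the amino acid and carnitine carriers, was the tested carrier whose male libraries all lay higher. It was at 56.4, 57.6 and 57.7 CPM in females and at 66.4, 66.5 and 63.9 CPM in males. The spread within each sex was small, but the fitted log2 fold change was 0.19 ± 0.16, with an unadjusted p of 0.223 and an adjusted p of 0.698 by edgeR.

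**Figure D3:**
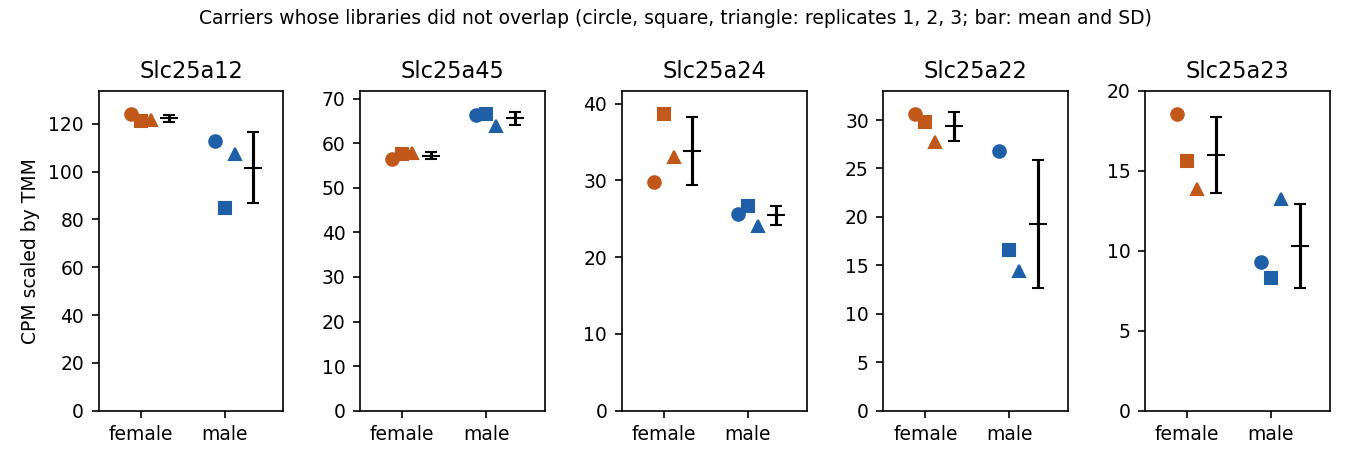
CPM of the 5 tested carriers whose male and female libraries do not overlap, one panel per gene, with one point per library and a bar for mean and SD of each sex. Slc25a12, Slc25a24, Slc25a22 and Slc25a23 lie lower in males and Slc25a45 higher, and male replicate 1 (circle) is the male library closest to the females for Slc25a12 and Slc25a22.

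Of the other role groups, the 3 carriers of ADP, ATP and phosphate had sums of 2066 to 2215 CPM in females and 2076 to 2195 CPM in males. The 8 tested carriers of amino acids and carnitine had a median log2 fold change of -0.03, and the sums over all 11 carriers of this group in the table were 354 to 355 CPM in females and 292 to 361 CPM in males. The iron and glutathione carriers had a median of -0.06 over 3 tested genes. Slc25a30, a relative of the uncoupling proteins, was the tested one of its group at 31.9 ± 5.90 CPM (SD, n = 3) in females and 26.6 ± 7.43 CPM in males. Slc25a46, an outer membrane member linked to mitochondrial shape, was at 47.5 ± 4.53 and 49.2 ± 13.5 CPM. Over 6 sets of close relatives the male minus female difference in the leading gene's share lay within the spread of the libraries (exact permutation tests, unadjusted p from 0.5 to 1, each 1 after adjustment over the 6).

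**Figure D4:**
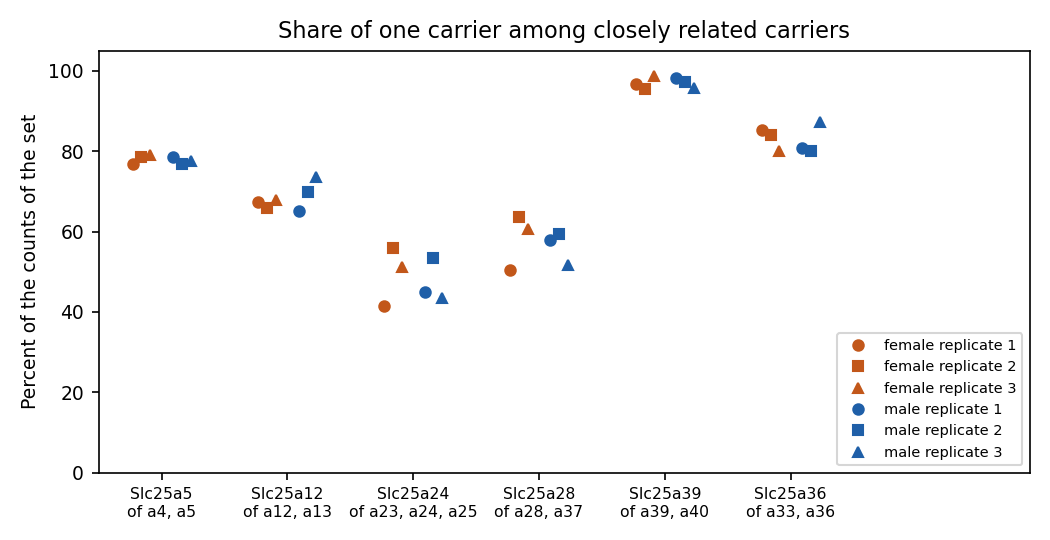
Share of counts (percent) taken by the leading carrier in 6 sets of close relatives, one point per library and colour by sex. Slc25a39 takes nearly all of its set, Slc25a5 near 78% of the translocases, and male and female points overlap in each set.

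As one number per library, the carriers' share of all counts was 0.346%, 0.333% and 0.329% in females and 0.333%, 0.290% and 0.296% in males. Male replicate 1 lay among the females and the other two males lay lower. The means were 0.336% ± 0.00858 (SD, n = 3) and 0.306% ± 0.0236, a difference of -0.0299 percentage points (exact permutation test, two-sided, p = 0.2, smallest possible 0.1). Transcripts of the mitochondrial genome took 3.59% to 5.64% of counts in females and 4.57% to 7.61% in males, and their part in this difference was not tested beyond leaving them out of the total, which gave -0.0273 percentage points. On the TMM scale the carrier sums were 3339, 3329 and 3256 CPM in females and 3251, 3273 and 3134 CPM in males.

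The 13 carriers that were not tested had 1 to 55 counts over all libraries. Slc25a33, with 55, was the highest, at 8.79 CPM, while the tested carrier with the fewest counts had 88. Slc25a26, which carries S-adenosylmethionine, had 44 counts, and Slc25a29 and Slc25a47 had 16 and 7. Slc25a2, an ornithine carrier, had a single count in 1 female library. For a library at 0, a floor of 3 counts allows up to 2.03 to 4.99 CPM depending on its depth. Of the 4 X-linked carriers, Slc25a5, Slc25a14, Slc25a53 and Slc25a43, only Slc25a5 was tested. Slc25a43 (chrX:36743659-36777202), the neighbour of Slc25a5, was counted 2, 3 and 3 times in females and 0 times in each male library. Against a floor of 3 counts over the male group it was 1.61-fold higher in females. That ratio takes the female counts as exact, so it is not a lower bound. The exact permutation test (two-sided) gave p = 0.1, the smallest possible. Slc25a43 was singled out after its values were seen, and with no filter on low counts its adjusted p by edgeR was 0.589. The annotation holds 47 protein-coding carriers, and the 6 others, Slc25a18, Slc25a31, Slc25a34, Slc25a41, Slc25a48 and Slc25a54, have no row among the deposited counts. No deposited row is at 0 in every library. Why these 6 are absent was not tested.

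Relatives and partners of the carriers were read from the same fit. Ucp2, a family member under another name, reached 765 ± 34.5 CPM (SD, n = 3) over the females and 736 ± 57.7 CPM over the males, with a log2 fold change of -0.05 ± 0.12. Its relative Ucp1, the uncoupling protein of brown fat, had 1 count in all. Mtch1, an outer membrane relative of the carriers, was at 161 ± 4.70 and 178 ± 20.5 CPM. Of 13 genes for the import of carriers into the inner membrane all were tested, 0 passed, and the median log2 fold change was 0.08, with Tomm70a (188 CPM) and Tomm40 (181 CPM), a receptor and the pore of the outer membrane, the highest. Timm10, a chaperone that escorts carriers between the membranes, was the only one of these with an unadjusted p under 0.05 (0.00654, edgeR, adjusted p 0.225). It was at 29.8, 40.0 and 23.9 CPM in females and 45.4, 54.9 and 48.2 CPM in males, and is named because of this value. Of 21 genes for other transport across mitochondrial membranes 18 were tested and 0 passed, 2 had an unadjusted p under 0.05, and the median was -0.05. Over all tested genes 11.3% had an unadjusted p under 0.05, so counts of 1 of 13 and 2 of 18 do not stand out. Tspo, an outer membrane protein, and Vdac1, the main outer membrane channel, were the highest, at 550 and 315 CPM. Tspo was at 477, 516 and 417 CPM in females and 455, 793 and 640 CPM in males, where 1 male library lay inside the female range, with a log2 fold change of 0.41 ± 0.15 (edgeR, unadjusted p = 0.0126, adjusted p = 0.273). The log2 fold change of Vdac1 was 0.01 ± 0.12.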

How the data were processed

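RNA was counted in 3 female and 3 male BRB-seq libraries, grouped by the sample titles. The authors deposited a table of raw gene counts, per the file headers, and its values are whole numbers that no scaling had touched. Per the submitters' processing notes, the tools were HISAT2 2.2.1, featureCounts 2.0.1, Trim Galore 0.6.7, DESeq2 and UMI-tools, and the builds GRCm38 and GRCh38. Neither strand use nor the collapsing of molecular identifiers is given in the sources used here, which means that PCR copies may be counted and that overlapping genes may share reads.

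Genes passing filterByExpr (minimum count 10, minimum total 15) numbered 8460. Male minus female was tested with edgeR 4.0.16 in R 4.3.3 (TMM, quasi-likelihood F test, no covariate, Benjamini-Hochberg at 0.05 over all tested genes). The biological coefficient of variation was 0.102. CPM are counts per 1000000 counts in tested genes, scaled by TMM. Coordinates are those of GENCODE M21 (GRCm38), to which all 41 carriers matched by identifier. Exact intervals of shares and the floors cover counting error only, while the intervals of fold changes come from the fit and include the spread between libraries. Pairs of libraries differed by more than sampling noise.

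The carriers and the lists were chosen with earlier results of these data known. Values per library are given for the 10 carriers with the highest level, those with an unadjusted p under 0.05, tested X-linked ones, and those whose libraries do not overlap. Within a role group the highest is named, and in other lists the genes past the threshold or else the 2 highest. The fit was tested on simulated data. Alternatives were other scalings (RLE, upper quartile, library size), other filters, DESeq2 1.42.0, limma-voom (limma 3.58.1), the replicate number as a block and leaving out each library.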

Additional observations from a re-analysis of the deposited data

How the results depend on the processing

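Carriers past the adjusted threshold numbered 0 under all 14 alternatives, and carriers with an unadjusted p under 0.05 numbered from 0 (DESeq2, and without female replicate 1, female replicate 2, male replicate 2 or male replicate 3) to 4 (library size scaling). With library size scaling, 1019 of all 8460 tested genes had an unadjusted p under 0.05, against these 4 of 28 carriers. Over all genes the count of 49 became 116 with no filter, and ranged from 23 to 415 when 1 library was left out. Fits by DESeq2 and by limma-voom each called 41. The replicate numbers do not pair the samples by the labels, and same-numbered libraries deviated together only weakly (correlations of 0.030, 0.034 and 0.048), although each library correlated best with its own number. With the replicate number as a block the count over all genes was 78 and the carriers stayed at 0. Signs near 0 turned. For Slc25a5 the log2 fold change was -0.0036 with upper-quartile scaling, -0.083 with library size scaling, -0.016 with no filter and from -0.028 to 0.047 with 1 library left out. For Slc25a4 it was -0.040 with library size scaling and from -0.018 to 0.13 with 1 library left out. Leaving out 1 library gave -0.21 to 0.082 for Slc25a51 and -0.16 to 0.049 for Slc25a17. Of the 13 carriers that the naming rule gives per library, the other 9 kept their sign under all alternatives. Slc25a37 and Slc25a38, named for their roles, were not followed across alternatives. Library size scaling moved the median of all genes by -0.092 and put 23 of 28 carriers below 0. The difference in the carriers' share of counts stayed below 0 under all alternatives tried, from -0.043 to -0.022 percentage points. The causes of these changes were not tested.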

Other observations

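Calcium handling gave a pattern that was noticed after the values were seen and was not tested. Of the 5 carriers that bind calcium through EF hands (Slc25a12, Slc25a13, Slc25a23, Slc25a24 and Slc25a25), 4 had a log2 fold change below 0, with a median of -0.39, against -0.003 for all tested genes. Their summed level was 256, 253 and 244 CPM in females and 231, 171 and 201 CPM in males, and the lowest adjusted p among them was 0.441 by edgeR. Mcu, the pore of the mitochondrial calcium uniporter, was at 43.5, 44.7 and 41.6 CPM in females and at 34.9, 28.3 and 27.7 CPM in males, with a log2 fold change of -0.50 ± 0.20 (edgeR, unadjusted p = 0.0211, adjusted p = 0.328). Mcub, a related subunit, was at 11.3, 10.2 and 10.0 CPM in females and at 9.32, 6.65 and 6.02 CPM in males. Smdt1, another subunit of the uniporter, was at 213 ± 15.1 CPM (SD, n = 3) in females and 222 ± 26.3 CPM in males, with a log2 fold change of 0.05 ± 0.12.

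The subunits of the mitochondrial pyruvate carrier, which work as a pair, differed widely in count. Mpc2 was at 135 ± 3.68 CPM (SD, n = 3) in females and 158 ± 23.8 CPM in males, while Mpc1 had 0 to 2 counts per library. The search for shared 3' windows covered the carriers only, so whether reads of Mpc1 were lost was not tested.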
